A study of Rattus norvegicus with 91 samples.

Results

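The genes of the cyclic AMP pathway, with the kinases and kinase anchors that work beside it, were followed in the ventral tegmental area of 10 rat lines bred in pairs for high or low alcohol consumption. The list held 47 genes, chosen by symbol: adenylyl cyclases, G protein subunits, phosphodiesterases, protein kinase A subunits, A-kinase anchors, cyclic AMP-responsive transcription factors with a coactivator, protein kinase C, calmodulin-dependent kinases and the Src-family kinase Fyn. A gene was measured by every probe set that the platform annotation gave to that gene alone. 45 of the 47 genes had such a probe set, 89 probe sets in all, out of 14217 genes with one in the whole series. Adcy1 and Gnai3 had none, and the 2 probe sets that name Gnai3 also name Gnai1. 70 of the 89 probe sets, of 43 genes, passed the filter on low signal and were tested. 57 of those 70 reached that filter's level in all 10 lines. The phosphodiesterase genes Pde1c and Pde7b did not pass, with highest line means of 6.09 and 6.02 on the log2 scale.

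Each of 91 arrays held the tissue of 1 rat, as the titles name 1 animal per array. The pairs, high line first, were HAD1 with 8 arrays and LAD1 with 10, HAD2 with 8 and LAD2 with 9, P with 9 and NP with 10, AA with 10 and ANA with 10, and sP with 8 and sNP with 9. The labels mark the first line of each pair as alcohol-preferring and the other as not; they give no age, sex or treatment, and name no allele, so a line difference here is a difference between bred stocks. The labels do not say which arrays were processed together, and levels were compared within a pair only.

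Adenylyl cyclases make cyclic AMP from ATP when the stimulatory G proteins Gs and Golf act on them, and the inhibitory Gi proteins and the phosphodiesterases hold it down or break it down. Cyclic AMP frees the catalytic subunits of protein kinase A from their regulatory subunits, anchors of the AKAP family hold the kinase near its substrates, and the kinase phosphorylates CREB, a transcription factor that binds the cyclic AMP response element. In the ventral tegmental area the pathway lies downstream of dopamine D2-type, opioid and GABA-B receptors, among others.

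Values are the deposited log2 signals, so a difference of 1 is a doubling of signal, and all differences are the high line minus the low line of a pair, with the standard error (SE) from the fit. A probe set was called at an adjusted p below 0.05. Signals of different probe sets were not compared as levels of different genes, because probes differ in brightness. In bulk tissue, fewer cells of a type and less RNA per cell cannot be told apart. Array medians ran from 7.67 to 7.90. When the arrays were sorted by their signal distributions into 5 sets, 88 fell with their own line pair and 3 did not: AA 1 lay with the P and NP arrays, and AA 19 and ANA 20 lay with the sP and sNP arrays. Results in AA/ANA are therefore given with and without these 3. P 10 stood apart by content: its signal for Th, which encodes the dopamine-synthesizing enzyme tyrosine hydroxylase, was 9.12 against 11.4 or more in the other P arrays, and the mean of 8 striatal marker genes was 11.1 against a highest NP value of 8.03. NP 8 also had a low Th signal, 8.23.

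Most members did not pass the test in any pair. In HAD1/LAD1, 4 of 70 member probe sets were called, all lower in HAD1, against 4.09% of all 15152 tested probe sets. 1 of the 4, at Akap5, passed the filter through LAD1 alone, where it was high. In HAD2/LAD2, 1 of 70 was called, higher in HAD2, against 5.23% of all. In AA/ANA, 6 of 70 were called, 3 higher and 3 lower in AA, against 3.17% of all. In the limma fit of line means, without array weights or a replicate block, no probe set of any gene was called in P/NP or sP/sNP. The same held for P/NP without P 10, so the background was 0% in each. At an unadjusted p below 0.05 in the limma fit, the members numbered 15 of 70 in P/NP against 5.74% of all tested probe sets, 0 of 70 in P/NP without P 10 against 1.72%, and 0 of 70 in sP/sNP against 1.13%. The median member difference was close to that of all tested probe sets in HAD1/LAD1 (0.00 against 0.00), in HAD2/LAD2 (0.01 against 0.01), in AA/ANA (-0.01 against 0.00) and in sP/sNP (0.00 against 0.01). P/NP was the exception, with a member median of 0.06 against -0.01 for all, and without P 10 of 0.02 against 0.00.

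**Figure D1:**
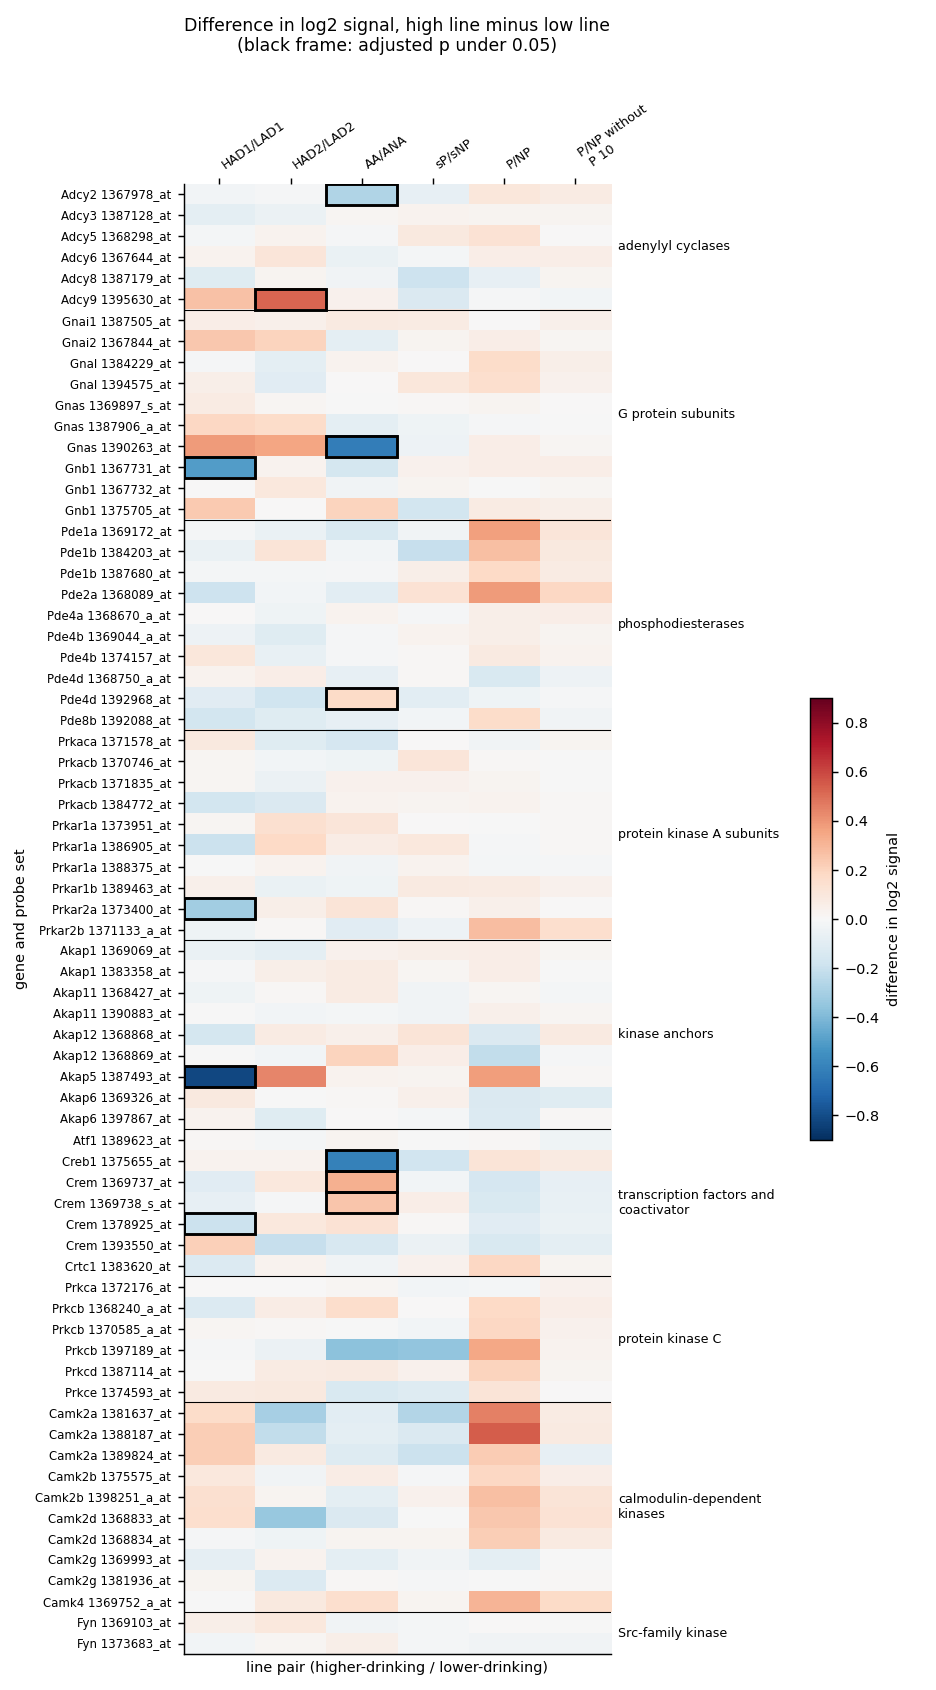
Difference in log2 signal, high line minus low line, for the 70 tested member probe sets (rows, grouped by role) in the 5 pairs and in P/NP without P 10 (columns); red is higher in the high line, blue lower, and a black frame marks an adjusted p below 0.05. The 11 framed cells lie in HAD1/LAD1, HAD2/LAD2 and AA/ANA, and the red P/NP column pales once P 10 is left out.

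The counts moved with single arrays in 3 pairs. In HAD1/LAD1, leaving out 1 array gave between 2 and 5 calls, with 2 without LAD1 38 (Gnb1 and Prkar2a). In HAD2/LAD2, leaving out 1 array gave between 1 and 3. Adcy9 was called each time there, and it was joined by Prkar1a 1386905_at without HAD2 5 or LAD2 17, by Pde4d 1392968_at without HAD2 8 or LAD2 15, and by both without LAD2 12. Without P 10, whose spread enters the shared error of the fit, the HAD2/LAD2 count was 2 of 70, against 5.73% of all tested probe sets. In AA/ANA, leaving out 1 array gave between 4 and 6. The share of all tested probe sets is not given beside the 3 ranges, so they are not read as a result about the members.

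Among the adenylyl cyclases, Adcy9 was the only member whose lines did not overlap in a pair. Adcy9 encodes a broadly expressed cyclase that, unlike most, responds weakly to forskolin. Its single tested probe set, 1395630_at, had a lowest, median and highest signal of 8.03, 8.22 and 8.33 in HAD2 and of 7.48, 7.70 and 8.02 in LAD2. All 8 HAD2 arrays lay above all 9 LAD2 arrays, as was the case in either direction for 1.6% of all tested probe sets in this pair. The difference was 0.52 ± 0.10, a 1.44-fold higher signal (adjusted p = 0.000133). In HAD1/LAD1 the Adcy9 difference was 0.26 ± 0.10 and was not called (adjusted p = 0.152), with overlapping lines. In the other 3 pairs it was between -0.13 and 0.04.

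Adcy2 encodes a cyclase that the beta-gamma dimers of G proteins activate when Gs is active. Its probe set 1367978_at ran from 10.7 through a median of 10.9 to 11.3 in AA and from 10.995 through 11.2 to 11.3 in ANA. 6 of 10 AA arrays lay below all ANA arrays, although the lines overlapped. The difference was -0.27 ± 0.07 (adjusted p = 0.00779), and -0.33 without AA 1, AA 19 and ANA 20 (adjusted p = 0.00113). The AA array with the highest Adcy2 signal was AA 5. Adcy2 differences in the other 4 pairs lay between -0.07 and 0.10. Adcy3, Adcy5, Adcy6 and Adcy8 were not called in any pair, and their largest difference was -0.18 for Adcy8, a calcium-stimulated cyclase, in sP/sNP.

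**Figure D2:**
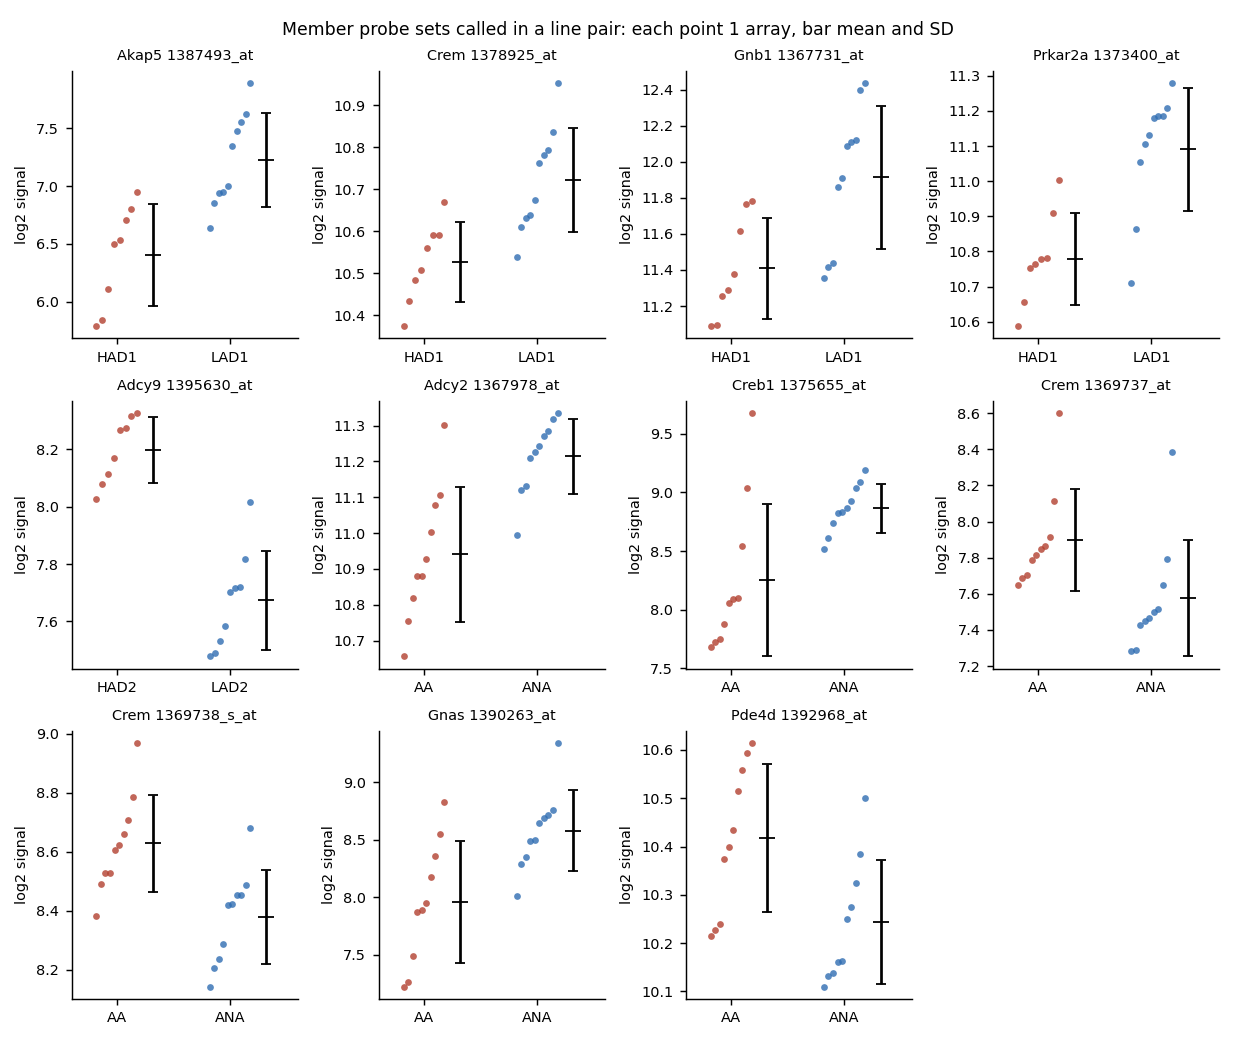
Log2 signal of each array (points) for the 11 member probe sets called in a pair, with the high line in red and the low line in blue and a bar for the mean ± SD of the line. HAD2 and LAD2 separate completely at Adcy9, and the lines overlap in the other 10 panels.

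Gnb1 and Gnas, the called G protein subunits, each had a single called probe set. Gnb1 encodes a beta subunit of the heterotrimeric G proteins. At its probe set 1367731_at, HAD1 ran from 11.1 through a median of 11.3 to 11.8 and LAD1 from 11.4 to 12.4, with a median 0.67 above that of HAD1. 7 of 10 LAD1 arrays lay above all HAD1 arrays, and LAD1 37, at 11.4, lay within HAD1. The difference was -0.51 ± 0.11 (adjusted p = 0.000578). Leaving out each of the 18 arrays in turn gave -0.57 to -0.45, with adjusted p of at most 0.00376. The widest came without LAD1 37, as leaving out the lowest array of the higher line had to widen the difference. The other Gnb1 probe sets gave 0.24 ± 0.09 at 1375705_at (adjusted p = 0.124) and 0.00 ± 0.06 at 1367732_at (adjusted p = 0.997) in the same arrays. 1375705_at is the brightest of the 3, so an analysis with the brightest probe set per gene would give the opposite sign for Gnb1, with no call. With HAD1 and LAD1 fitted alone the adjusted p for 1367731_at was 0.0738.

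Gnas encodes the stimulatory alpha subunit Gs and, from other first exons, further proteins. At 1390263_at AA ran from 7.22 through a median of 7.92 to 8.83 and ANA from 8.01 through 8.57 to 9.34. 6 of 10 AA arrays lay below all ANA arrays. The difference was -0.62 ± 0.15 (adjusted p = 0.00457), and -0.77 without AA 1, AA 19 and ANA 20 (adjusted p = 0.000426). With the AA and ANA arrays fitted alone its adjusted p was 0.121. The far brighter probe sets 1369897_s_at and 1387906_a_at, with AA means of 14.8 and 13.4, differed by -0.00 ± 0.04 and -0.09 ± 0.06 and were not called (adjusted p = 0.984 and 0.668). In HAD1/LAD1 and HAD2/LAD2 1390263_at was 0.39 ± 0.16 and 0.36 ± 0.16 higher in the high line, which was not called (adjusted p = 0.2 and 0.253). 1387906_a_at had the same sign in these pairs, 0.18 ± 0.07 and 0.17 ± 0.07, and was not called either (adjusted p = 0.131 and 0.189). All 3 Gnas probe sets were above 0 in both HAD/LAD pairs and below 0 in AA/ANA.

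Gnal encodes Golf, the Gs relative that couples dopamine and adenosine receptors to cyclase in the striatum. Its 2 tested probe sets differed by at most 0.16 in size in any pair, at 1384229_at in P/NP. Gnai2, an inhibitory subunit, was 0.24 ± 0.10 higher in HAD1 and was not called (adjusted p = 0.219). Gnai1, the other inhibitory subunit with a probe set of its own, stayed between 0.00 and 0.08.

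**Figure D3:**
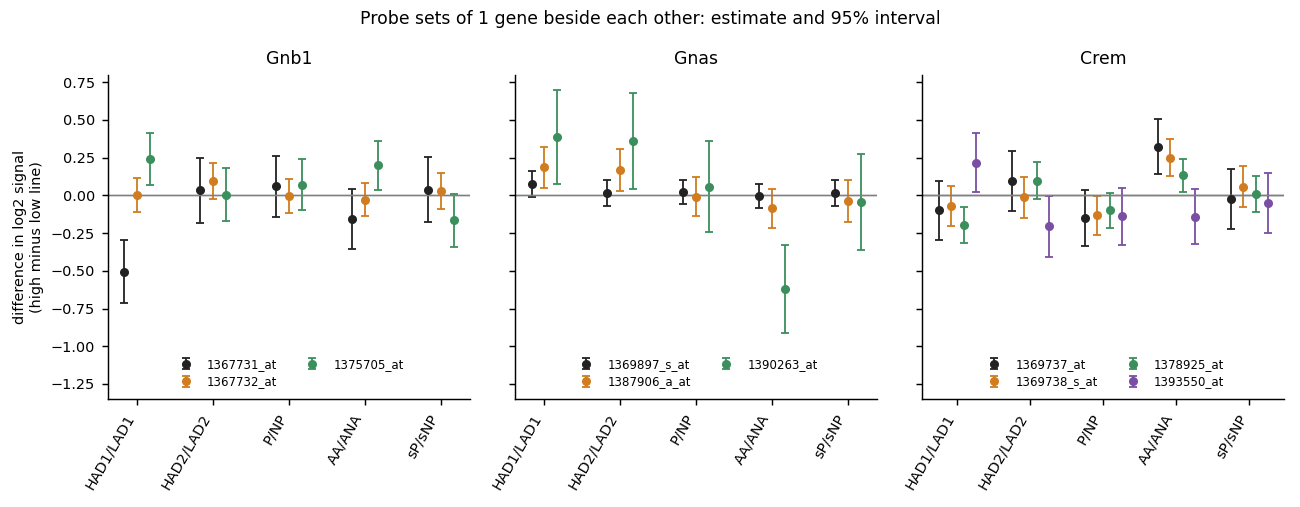
Difference in log2 signal (points, high line minus low line) with its 95% interval (bars) in the 5 pairs for the tested probe sets of Gnb1, Gnas and Crem, side by side. In HAD1/LAD1 the Gnb1 probe sets lay below, at and above 0, the Gnas probe sets had the same sign as each other in HAD1/LAD1, HAD2/LAD2 and AA/ANA but differed in size, and at Crem 3 of 4 probe sets had the same sign in AA/ANA.

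Phosphodiesterases break down cyclic nucleotides, and 1 of their 10 tested probe sets was called in a pair. Pde4d encodes a cyclic AMP-specific enzyme of the rolipram-sensitive family. Its probe set 1392968_at ran from 10.2 through a median of 10.4 to 10.6 in AA and from 10.1 through 10.2 to 10.5 in ANA. 4 of 10 AA arrays lay above all ANA arrays. The difference was 0.17 ± 0.05 (adjusted p = 0.0492), close to the threshold, and 0.18 without AA 1, AA 19 and ANA 20 (adjusted p = 0.0468). It did not pass in 6 of 14 alternative settings. They were no filter, quantile normalization, arrays centred on their medians, 1 probe set per gene, the mean per gene, and AA and ANA fitted alone. The call was lost when any 1 of 14 of the 20 arrays was left out (AA 1, 3, 9, 11, 15, 17 or 19 or ANA 2, 6, 8, 12, 14, 16 or 18), with adjusted p from 0.0547 to 0.126 and differences from 0.15 to 0.18. In HAD2/LAD2 the same probe set differed by -0.18 ± 0.06 and was not called (adjusted p = 0.0535). It was called there without P 10 (adjusted p = 0.0429). The second Pde4d probe set, 1368750_a_at, had AA and ANA means below the filter's level. It differed by -0.07 ± 0.11 in AA/ANA and was not called (adjusted p = 0.891).

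The remaining phosphodiesterases were not called in any pair. Outside P/NP their largest differences were -0.21 for Pde1b, a calmodulin-stimulated enzyme, in sP/sNP and -0.19 for Pde2a, which cyclic GMP stimulates, in HAD1/LAD1. Pde4a, Pde4b, Pde1a and Pde8b differed by 0.16 or less outside P/NP.

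Of the protein kinase A subunits, the regulatory subunit gene Prkar2a was called. Prkar2a encodes the RII alpha subunit, which binds A-kinase anchors. At 1373400_at HAD1 ran from 10.6 through a median of 10.8 to 11.003 and LAD1 from 10.7 through 11.2 to 11.3. 8 of 10 LAD1 arrays lay above all HAD1 arrays, and LAD1 37 was again the lowest of its line at 10.7. The difference was -0.31 ± 0.08 (adjusted p = 0.00801). Leaving out 1 array at a time gave -0.35 to -0.28, with adjusted p of at most 0.0295. The widest came without LAD1 37, as leaving out the lowest array of the higher line had to widen the difference. The Prkar2a difference passed the threshold in 14 alternative settings and after leaving out each of the 18 arrays in turn. The 14 did not include a 1.5-fold minimum, which it did not reach. In the other 4 pairs the Prkar2a differences lay between 0.01 and 0.11.

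Prkar1a, the RI alpha regulatory subunit, had opposite signs in the 2 HAD/LAD pairs at 1386905_at. HAD1 ran from 11.6 through a median of 11.7 to 11.9 and LAD1 from 11.7 through 11.95 to 12.1, a difference of -0.19 ± 0.06 (adjusted p = 0.0507). HAD2 ran from 10.7 through 10.95 to 11.2 and LAD2 from 10.7 through 10.8 to 10.98, a difference of 0.18 ± 0.06 (adjusted p = 0.077). Neither was called, and the test of whether the difference depends on the pair was passed (adjusted p = 0.0155). Without P 10 the HAD1/LAD1 difference was called (adjusted p = 0.0463). The other Prkar1a probe sets, 1373951_at and 1388375_at, gave 0.02 and -0.00 in HAD1/LAD1 and 0.14 and 0.03 in HAD2/LAD2.

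The catalytic subunits Prkaca and Prkacb were not called in any pair, with largest differences of -0.15 for Prkaca in AA/ANA and -0.17 for Prkacb in HAD1/LAD1. Prkar1b and Prkar2b, the beta forms of the regulatory subunits, were not called either. Prkar2b, a form enriched in brain, had its largest difference in P/NP, 0.28 ± 0.11 with P 10 and 0.15 ± 0.10 without it.

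Among the anchors, Akap5 was called in HAD1/LAD1, at a signal near or below the filter's level of 7.02. Akap5 encodes a neuronal anchor that holds protein kinase A, protein kinase C and calcineurin at the postsynaptic membrane. At 1387493_at HAD1 ran from 5.79 through a median of 6.52 to 6.95 and LAD1 from 6.63 through 7.18 to 7.89. 6 of 10 LAD1 arrays lay above all HAD1 arrays. LAD1, with a mean of 7.23, was the 1 line that took this probe set past the filter, and the HAD1 mean of 6.40 lay below it. A probe set that passes only through its high line had to differ, so the filtered test lends this call no support. With no filter the fitted difference was -0.82 ± 0.24 (adjusted p = 0.0324), and with the filter the adjusted p was 0.0256. No fold is given, because HAD1 lay below the filter's level.

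The shared error for Akap5 was widened by 1 array of another pair, P 10, at 9.28 against 5.52 to 6.91 in the other P arrays. Without P 10 the HAD1/LAD1 difference was -0.82 ± 0.18 (adjusted p = 0.000786). This fit and the omissions that follow used the same filtered probe sets, so their adjusted p lend the call no support either. With P 10 in the fit, the call was lost when HAD1 23, 26 or 29 or LAD1 31, 35 or 38 was left out, with adjusted p from 0.0512 to 0.082. The Akap5 difference in HAD2/LAD2 had the other sign, 0.44 ± 0.24, and was not called (adjusted p = 0.43).

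No other anchor was called. Akap1 targets the kinase to the mitochondrial surface, Akap6 to the nuclear envelope, and Akap11 and Akap12 bind RII subunits in the cytoplasm and at the membrane. Their largest difference outside P/NP was 0.20 for Akap12 1368869_at in AA/ANA. At this probe set P 10 was the lowest P array, at 10.8 against 12.1 to 13.1 in the other P arrays.

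The transcription factors gave the most calls in AA/ANA, in opposite directions. Creb1 encodes CREB, the activator that protein kinase A phosphorylates. At 1375655_at AA ran from 7.68 through a median of 8.07 to 9.68 and ANA from 8.52 through 8.85 to 9.19. 7 of 10 AA arrays lay below all ANA arrays, and AA 1 lay above all of them at 9.68. The Creb1 difference was -0.61 ± 0.13, a 1.53-fold higher signal in ANA (adjusted p = 0.000954). Without AA 1, AA 19 and ANA 20 it was -0.84 ± 0.11 (adjusted p = 4.01e-08), with AA from 7.68 to 9.04 and ANA from 8.52 to 9.19, so that the lines still overlapped through AA 5. With the AA and ANA arrays fitted alone, AA 1 included, the adjusted p was 0.162. In the other 4 pairs Creb1 stayed between -0.17 and 0.12 and was not called.

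Crem encodes activators of the same family and, from a promoter inside the gene, the short inducible repressor ICER. At 1369738_s_at AA ran from 8.38 through a median of 8.62 to 8.97 and ANA from 8.14 through 8.42 to 8.68, a difference of 0.25 ± 0.06 (adjusted p = 0.00846). At 1369737_at AA ran from 7.65 through 7.83 to 8.60 and ANA from 7.28 through 7.48 to 8.39, a difference of 0.32 ± 0.09 (adjusted p = 0.0298); in the HAD and LAD lines its means lay below the filter's level. In both probe sets the lines overlapped, with 4 and 7 of the 10 ANA arrays below all AA arrays. The highest AA and ANA arrays at 1369737_at were AA 1 and ANA 20, and without those and AA 19 the difference was 0.30 ± 0.08 (adjusted p = 0.014). At 1369738_s_at the same omission gave 0.22 ± 0.07 (adjusted p = 0.0348).

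Leaving out 1 array at a time ended the call at Crem 1369737_at for AA 1 or 19 or ANA 2, 8, 10, 12, 16 or 18, with differences from 0.24 to 0.31 and adjusted p from 0.0549 to 0.139. With the AA and ANA arrays fitted alone neither Crem probe set was called (adjusted p = 0.273 for 1369737_at and 0.0948 for 1369738_s_at). The third and brightest, 1378925_at, was 0.13 ± 0.06 higher in AA and was not called (adjusted p = 0.252). The fourth, 1393550_at, was -0.14 ± 0.09 (adjusted p = 0.581).

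In HAD1/LAD1 the Crem call was at 1378925_at. HAD1 ran from 10.4 through a median of 10.5 to 10.7 and LAD1 from 10.5 through 10.7 to 10.95, a difference of -0.20 ± 0.06 (adjusted p = 0.0375). 6 of 10 LAD1 arrays lay above all HAD1 arrays. The call was lost when HAD1 22, 25, 26 or 30 or LAD1 31, 34, 38, 39 or 40 was left out, with differences from -0.17 to -0.19 and adjusted p from 0.0596 to 0.106, and with the pair fitted alone (adjusted p = 0.0553). 1369738_s_at and 1369737_at had the same sign there, -0.07 and -0.10, and 1393550_at the other, 0.22 ± 0.10 (adjusted p = 0.294).

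Promoter sequence is shown for Crem and Creb1 because these are the genes of the list that bind the cyclic AMP response element and had calls with opposite signs in AA/ANA. RefSeq promoter windows of the GRCr8 assembly, 300 bases each, were at hand for 37 of the 47 genes, 52 windows in all. The full element TGACGTCA, a palindrome and so the same on both strands, was in 2 of the 52 windows (3.85%), both of Crem, against 1.83% of 33465 windows of all genes. The shorter core TGACG, read on both strands and contained in the full element on each, was in 14 of the 52 (26.9%) against 21.2% of all. The member windows were richer in G and C, with a median of 63.8% against 51.7%. In the windows of Crem and Creb1, capitals mark both motifs. Windows A, B and C of Crem are chr17:58933816-58934115, chr17:58984547-58984846 and chr17:58985240-58985539, all on the plus strand, and the Creb1 window with 3 shorter cores is chr9:73397259-73397558, also plus. The other Creb1 window, chr9:73414978-73415277, holds neither motif and is not shown.
Crem, window A: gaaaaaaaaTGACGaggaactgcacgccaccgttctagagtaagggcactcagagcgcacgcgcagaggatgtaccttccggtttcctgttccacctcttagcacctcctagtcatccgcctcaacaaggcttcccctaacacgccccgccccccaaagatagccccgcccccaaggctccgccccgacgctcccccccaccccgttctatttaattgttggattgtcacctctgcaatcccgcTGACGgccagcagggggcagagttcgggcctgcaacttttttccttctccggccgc
Crem, window B: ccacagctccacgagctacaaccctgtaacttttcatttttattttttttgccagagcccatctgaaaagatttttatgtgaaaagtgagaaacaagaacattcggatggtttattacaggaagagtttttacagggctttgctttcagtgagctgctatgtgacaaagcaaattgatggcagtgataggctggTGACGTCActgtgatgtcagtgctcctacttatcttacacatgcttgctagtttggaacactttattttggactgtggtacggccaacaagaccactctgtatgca
Crem, window C: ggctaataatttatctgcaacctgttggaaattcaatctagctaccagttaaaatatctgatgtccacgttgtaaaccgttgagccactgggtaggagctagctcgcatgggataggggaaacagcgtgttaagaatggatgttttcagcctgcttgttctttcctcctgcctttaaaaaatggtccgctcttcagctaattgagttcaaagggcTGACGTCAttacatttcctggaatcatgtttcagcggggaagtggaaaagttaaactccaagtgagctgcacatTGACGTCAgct
Creb1: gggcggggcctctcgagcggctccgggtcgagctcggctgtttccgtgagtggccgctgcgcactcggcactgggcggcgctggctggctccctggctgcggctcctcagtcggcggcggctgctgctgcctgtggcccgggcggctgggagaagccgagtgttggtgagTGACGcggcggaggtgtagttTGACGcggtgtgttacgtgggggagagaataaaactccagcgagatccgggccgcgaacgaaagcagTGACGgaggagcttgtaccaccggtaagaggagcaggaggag
Window B of Crem holds 1 full element, which begins 56 bases before the annotated start, and window C holds 2, the first of them beginning 35 bases before the start. The second full element of window C lies after the start, as does the last core in the Creb1 window. Window A holds 2 shorter cores and no full one. A match describes the letters only, and no binding was measured here.

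Atf1, the third member of the CREB family, stayed within 0.04 of 0 in each of the 5 pairs, with and without P 10. Crtc1, a coactivator of CREB that calcineurin and cyclic AMP send to the nucleus, was not called; its largest difference was 0.19 ± 0.09 in P/NP, and 0.03 ± 0.06 without P 10.

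The protein kinase C, calmodulin-dependent kinase and Fyn probe sets, 18 in all, were not called in any pair in the unweighted fit of all 91 arrays. Outside P/NP the largest difference among the calmodulin-dependent kinases, which decode calcium signals, was -0.34 ± 0.12 for Camk2d 1368833_at in HAD2/LAD2 (adjusted p = 0.0975). It was called there with HAD2 and LAD2 fitted alone (adjusted p = 0.0357) and without P 10 and NP 8 (adjusted p = 0.0473). It was also called without AA 1, AA 19 and ANA 20 (adjusted p = 0.0438). The other Camk2d probe set differed by -0.04 in this pair. Among protein kinase C genes, Prkcb 1397189_at differed by -0.37 ± 0.20 in AA/ANA and by -0.35 ± 0.22 in sP/sNP, both with overlapping lines and not called (adjusted p = 0.46 and 1). Prkca, Prkcd and Prkce stayed within 0.14 of 0 outside P/NP. Fyn, a kinase of NMDA receptor subunits, stayed within 0.09 of 0 at both probe sets in each pair.

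In P/NP the members' differences moved with 1 array. P 10 was the highest of the 9 P arrays at 40 of 70 member probe sets (57.1%), against 26.1% of all tested probe sets, and the lowest at 16 (22.9%), against 36.2%. Camk2a, the abundant forebrain kinase of synaptic plasticity, read 12.4 in P 10 at 1388187_at, while the other P arrays ran from 7.68 through a median of 8.15 to 8.98 and NP from 7.06 through 7.94 to 9.44. The P/NP difference of that probe set was 0.55 ± 0.27 with P 10 and 0.08 ± 0.19 without it (adjusted p = 0.869 and 1). Pde1b, a calmodulin-stimulated phosphodiesterase of striatal neurons, read 12.008 in P 10 at 1384203_at against 9.92 to 10.7 in the other P arrays. Its difference was 0.27 ± 0.11 with P 10 and 0.09 ± 0.08 without it (adjusted p = 0.844 and 1). Pde2a had the largest difference without P 10, 0.19 ± 0.15, against 0.38 ± 0.16 with it.

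Over the 70 member probe sets the median size of the P/NP difference was 0.09 with P 10 and 0.03 without it, and it was smaller without P 10 at 58 of 70. The same omission took the member probe sets with an unadjusted p below 0.05 from 15 to 0 in the limma fit. Striatal marker genes were raised in the same array, as given above, and their part in these values was not tested. NP 8, the NP array with the low Th signal, was the lowest of its line at 22 of 70 member probe sets (31.4%), against 22.9% of all, among them Pde1a at 6.14 against 6.66 to 9.02 in the other NP arrays. Without both P 10 and NP 8, 0 member probe sets were called in P/NP, against 0% of all tested. When arrays were weighted by their spread instead, P 10 had the lowest weight, 0.101, and NP 10, NP 9 and NP 2 followed with 0.140, 0.166 and 0.194. With these weights 10 member probe sets were called in P/NP, against 10% of all tested, and 6 with weights estimated without P 10, against 7.93%. The 6 were Camk2a 1381637_at and 1388187_at, Camk2b 1398251_a_at, Prkar2b and Pde1a, higher in P, and Akap6 1369326_at, lower in P. Their sizes moved with the weighting. Without P 10, the weighted and unweighted differences were 0.63 and 0.08 at Camk2a 1381637_at, 0.50 and 0.08 at 1388187_at and 0.62 and 0.11 at Pde1a. They were 0.28 and 0.12 at Camk2b, 0.31 and 0.15 at Prkar2b and -0.46 and -0.11 at Akap6.

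**Figure D4:**
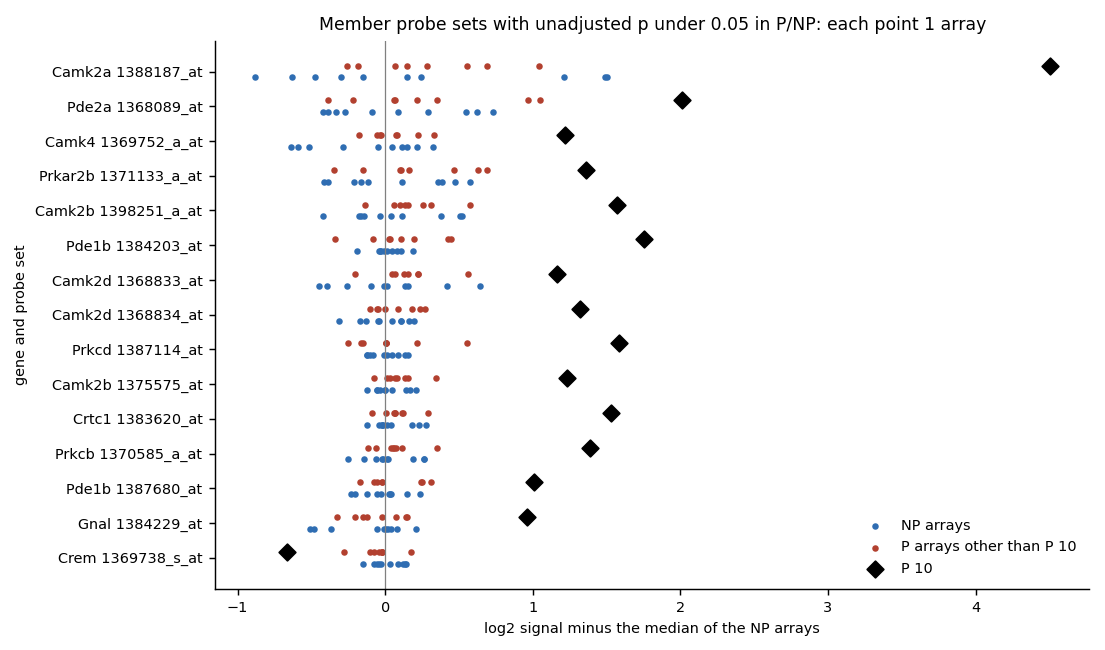
Log2 signal of each array minus the median of the NP arrays for the 15 member probe sets with an unadjusted p below 0.05 in P/NP (NP blue, P red, P 10 black diamond). P 10 lies above every other array of both lines at 14 of them, below every other at Crem 1369738_s_at, and apart from them by the most at Camk2a 1388187_at.

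Differences of 10 of the 70 member probe sets depended on the pair (adjusted p below 0.05 in the moderated F test), against 6.53% of all tested probe sets. They were Adcy9, Akap5, Creb1, Crem 1369738_s_at and 1378925_at, Gnas 1390263_at, Gnb1 1367731_at, Pde4d 1392968_at, Prkar1a 1386905_at and Prkar2a. Leaving out 1 array of the 91 gave between 7 and 12 such member probe sets, a range without the share of all tested probe sets beside it. Gnas had the smallest adjusted p, 0.00153, with positive differences in HAD1/LAD1 and HAD2/LAD2 and the negative one in AA/ANA. Adcy9 followed (adjusted p = 0.00403), with its positive differences in the 2 HAD/LAD pairs. Akap5 passed the filter through LAD1 alone, where it was high, so its place among the 10 lends no support.

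**Figure D5:**
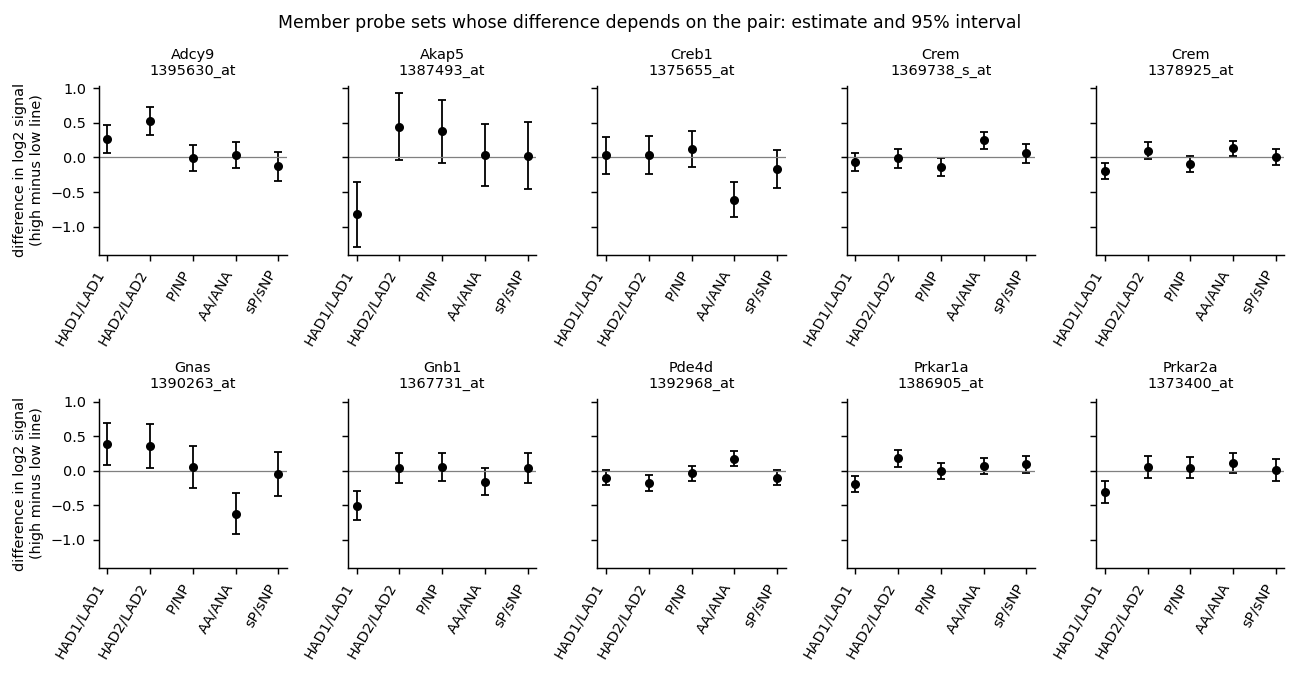
Difference in log2 signal (points, high line minus low line) with its 95% interval (bars) in each of the 5 pairs for the 10 member probe sets whose difference depended on the pair. Adcy9 lies highest in HAD2/LAD2, Akap5, Gnb1 and Prkar2a lowest in HAD1/LAD1, and Creb1 and Gnas 1390263_at lowest in AA/ANA. Akap5 passed the filter through LAD1 alone, where it was high.

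Averaged over the 5 pairs, no member was called by limma, against 1.55% of all tested probe sets, and 7 of 70 had an unadjusted p below 0.05, against 9.98% of all. The largest average difference was that of Adcy9, 0.14 ± 0.04 (adjusted p = 0.109). It was called when AA 1 was left out (0.15 ± 0.04, adjusted p = 0.0493), and also without AA 1, AA 19 and ANA 20 (adjusted p = 0.0423). The lines of a pair did not overlap for 0.205% of all tested probe sets in HAD1/LAD1, for 0.033% in AA/ANA and for 0% in P/NP and sP/sNP, and for no member in those 4 pairs.

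Other genes of the pathway, from a list of 90 of which 72 had tested probe sets (108 probe sets), were called in HAD2/LAD2 and AA/ANA. In HAD2/LAD2, 4 of 108 were higher and 1 lower in the high line, near the 5.23% of all tested probe sets. Gng3, a neuronal G protein gamma subunit, was 0.55 ± 0.09 higher in HAD2 (adjusted p = 8.37e-06). Akap13, another anchor of protein kinase A, was 0.30 ± 0.08 higher (adjusted p = 0.00608), and both probe sets of the kinase gene Src were higher, by 0.27 and 0.31. The fifth, Pde8a, differed by -0.23 ± 0.07 (adjusted p = 0.0277). In AA/ANA, 2 of 108 were higher and 1 lower in AA, near the 3.17% of all. They were Rapgef4, the cyclic AMP-activated exchange factor Epac2, by 0.35 ± 0.11 (adjusted p = 0.041), Prkx, a kinase related to protein kinase A, by 0.21 ± 0.06 (adjusted p = 0.0415), and Gnb3 with a difference of -0.30 ± 0.06 (adjusted p = 0.00114). In HAD1/LAD1, where the median of this list was -0.00, none of the 108 was called by limma, against 4.09% of all; 13 had an unadjusted p below 0.05, against 12.7% of all.

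A few marker probe sets of other cells were called in the same pairs. Beside these counts, the shares of all tested probe sets called were 4.09% in HAD1/LAD1, 5.23% in HAD2/LAD2 and 3.17% in AA/ANA. In HAD1/LAD1, 3 of 15 oligodendrocyte probe sets were called, all higher in HAD1, and 0 of 20 dopamine neuron probe sets. Of 13 astrocyte probe sets 1 was lower in HAD1 (Slc1a2, -0.45), while the median of that list was 0.06. Of 8 microglial probe sets 1 was lower (Cx3cr1, -0.33), with a list median of -0.00. Of 12 endothelial and pericyte probe sets 1 was lower (Abcb1a, -0.53) and 1 higher (Tek, 0.39), with a list median of -0.01. The mean over the 9 oligodendrocyte genes ran from 13.1 to 13.2 in HAD1 and from 12.8 to 13.2 in LAD1, and that over the 12 dopamine neuron genes from 11.6 to 12.2 and from 11.7 to 12.5. In HAD2/LAD2, 2 of 8 microglial probe sets, both of P2ry12, and 1 of 13 astrocyte probe sets were higher in HAD2, 1 of 15 oligodendrocyte probe sets was lower, and of 12 endothelial and pericyte probe sets 2 were higher and 2 lower. Microglial means ran from 8.10 to 8.73 in HAD2 and from 8.15 to 8.39 in LAD2. In AA/ANA, 1 of 15 oligodendrocyte, 2 of 13 astrocyte and 2 of 12 endothelial and pericyte probe sets were higher in AA, with astrocyte means from 12.2 to 12.8 in AA and from 12.1 to 12.8 in ANA. In P/NP no marker probe set was called, with or without P 10. Without P 10, 7 of 20 dopamine neuron probe sets had an unadjusted limma p below 0.05, against 1.72% of all, with a list median of 0.50. With P 10 it was 0 of 20, with a median of 0.24. The other marker lists had at most 1 such probe set without P 10. The part of cell makeup in the member differences was not tested.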

How the data were processed

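One Affymetrix array per rat was analysed. The authors deposited log2 signals for 31099 probe sets, made with RMA per the submitters' processing notes; neither its version nor which arrays were normalized together was stated. Of the probe sets, 20826 name 1 gene, 436 several, 9780 none and 57 are controls. RMA signals are compressed at the low end, so small differences of dim probe sets can be understated.

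Single-gene probe sets entered the tests where the mean of at least 1 line reached the 40th percentile of all values (7.02), which left 15152. All arrays entered 1 limma 3.58.1 fit in R 4.3.3 (lmFit, eBayes; 10 line means, 81 residual degrees of freedom). Contrasts were each pair, the average of the 5, and a moderated F statistic (numerator df 4) for dependence on the pair. P-values were 2-sided and adjusted by Benjamini-Hochberg over all probe sets of a contrast. The members and lists were chosen with earlier results of these data known. Members with a called probe set in a pair are described in full, other members by their largest difference, and other lists by counts with the called genes named. Nothing says whether arrays of a line share litters, so p-values measure the spread between these arrays. The number of arrays limits the precision. Alternatives were other filters, normalizations, priors, weights, probe set rules, single-pair fits and omitted arrays. The fit was tested on simulated data. Figures were drawn with matplotlib 3.10.9.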

Additional observations from a re-analysis of the deposited data

Results flagged for a closer look

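Within lines, 13 of 52 sets of arrays tested held 1 array far from the others. Each array was judged by its gap to the nearest array as a share of the line's whole range. The sets were the lines of the pair at each called probe set, and P and NP at 15 member probe sets. Those 15 had an unadjusted p below 0.05 in the limma fit of P/NP with P 10. That choice favours probe sets where P 10 stands apart, so the 13 cannot be set against a chance rate. In P the array was P 10 each time, with a share of 0.727 at Camk2a 1388187_at, 0.632 at Camk4, 0.582 at Camk2b 1398251_a_at, 0.681 at Camk2b 1375575_at, 0.626 at Pde1b 1384203_at, 0.592 at Pde1b 1387680_at, 0.741 at Camk2d 1368834_at, 0.561 at Prkcd, 0.767 at Crtc1, 0.692 at Prkcb 1370585_a_at and 0.631 at Gnal 1384229_at, where it was the highest. At Crem 1369737_at the highest array stood apart in AA (AA 1, 0.514) and in ANA (ANA 20, 0.536).

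The difference between the lines depended on the pair at 10 member probe sets, with adjusted p from the limma F test of 0.00153 for Gnas 1390263_at, 0.00403 for Adcy9, 0.00688 for Pde4d 1392968_at, 0.0132 for Crem 1378925_at, 0.0134 for Crem 1369738_s_at, 0.0155 for Prkar1a 1386905_at, 0.0184 for Gnb1 1367731_at, 0.0184 for Creb1, 0.0399 for Prkar2a and 0.0406 for Akap5. Of these, Prkar1a was not called in any single pair, and Akap5 passed the filter through LAD1 alone, so its value lends no support.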

How the results depend on the processing

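The counts of member probe sets called were 4 in HAD1/LAD1, 1 in HAD2/LAD2, 6 in AA/ANA, 0 in P/NP and sP/sNP, 0 in the average and 10 for dependence on the pair. In that order, the shares of all tested probe sets were 4.09%, 5.23%, 3.17%, 0%, 1.55% and 6.53%. With array weights, lowest for P 10 (0.101), NP 10 (0.140), NP 9 (0.166) and NP 2 (0.194), they were 4 in HAD2/LAD2, 10 in P/NP, 6 in P/NP without P 10, 3 in the average and 23 for dependence on the pair, while the share of all tested probe sets called rose too, to 7.66%, 10%, 7.93%, 6.98% and 22.9%. The 10 were at Camk2a (2 probe sets), Camk2b (2), Pde1a, Pde2a, Pde4b, Prkar2b, Gnai2 and Akap6. HAD2/LAD2 had 2 with a 60th percentile floor and with quantile normalization over all arrays, against 5.93% and 5.3% of all tested probe sets. It also had 2 with unnamed and several-gene probe sets added, with the mean of a gene's probe sets, with the pair fitted alone and without P 10. There the shares of all were 6.15%, 5.56%, 5.04% and 5.73%. It had 3 without P 10 and NP 8, against 5.85% of all. Without AA 1, AA 19 and ANA 20 it had 4, against 5.95%, and the average had 1, against 2.21%. One probe set per gene gave 2 of 43 in AA/ANA, against 2.94% of all, and 6 for dependence on the pair, against 6.33%. It turned Gnb1 in HAD1/LAD1 to 0.24 (adjusted p = 0.128), because it takes 1375705_at. The mean of a gene's probe sets gave 3 of 43 in AA/ANA, against 3.12% of all, and 5 for dependence on the pair, against 6.69%. Each pair fitted alone gave 2 in HAD1/LAD1, against 3.44% of all tested probe sets, and 1 in AA/ANA, against 1.3%. The 2 in HAD1/LAD1 were Prkar2a and Akap5. A 1.5-fold minimum left 1 in HAD1/LAD1, 0 in HAD2/LAD2 and 2 in AA/ANA, against 0.845%, 1.1% and 0.568% of all tested probe sets. The 1 was Akap5, which passed the filter through LAD1 alone and whose HAD1 signal lay below the filter's level.

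Leaving out 1 array gave 2 to 5 calls in HAD1/LAD1, 1 to 3 in HAD2/LAD2, 4 to 6 in AA/ANA, 0 to 1 in the average and 7 to 12 for dependence on the pair. The share of all tested probe sets is not given beside these ranges, so they are not read as a result about the members. Prkar2a, Adcy9 and Adcy2 passed the threshold in 14 other settings, which do not include the 1.5-fold minimum. Each of these genes lay below that minimum. A block for the replicate number, built for P/NP and sP/sNP only, left 0 members called in both. Of all tested probe sets, 15 were called in P/NP (0.099%), 18 in P/NP without P 10 (0.119%) and 0 in sP/sNP. In the fit with this block HAD1/LAD1 had 3, HAD2/LAD2 2 and AA/ANA 6, against 4.14%, 5.41% and 3.25% of all. Crem 1378925_at was lost in HAD1/LAD1 (adjusted p = 0.0573). Replicate numbers are shared in P/NP and sP/sNP; same-numbered arrays correlated from -0.71 to 0.70 in P/NP, with 6 of 9 over 0.1, and from -0.37 to 0.29 in sP/sNP, with 1 of 8, so the numbers were not taken as pairs. Unless a reason is given here, the cause of a change between settings was not tested. Signal over background was judged by the 7.02 filter alone, and the lower line of the Akap5 call lay below it.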
